A study of Homo sapiens
Mus musculus and Mus musculus and Homo sapiens with 16 samples.

Results

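Contractile and tension-responsive genes of a bone marrow stromal cell line were followed through coculture with lymphoma cells. The set held 10 of the 49671 mouse genes in the count table: the actins Acta2 and Actg2, the smooth muscle proteins Tagln, Cnn1 and Myl9, the tropomyosins Tpm1 and Tpm2, the adhesion protein Vcl, and the secreted CCN proteins Ctgf and Cyr61. These genes were chosen by symbol as markers of the myofibroblast state and as SRF and YAP targets, with their counts in MS-5 cells alone and in coculture already known, so their own coculture values below are a description without a test. All 10 symbols were found, and 8 passed the filter on low counts that left 12201 mouse genes, Tagln and Cnn1 being the ones that did not. The level in stromal cells and the change in coculture are taken in turn, followed by the other genes of the same pathways and by the human orthologs in the lymphoma cells.

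MS-5 is a mouse bone marrow stromal cell line and REC-1 a human mantle cell lymphoma line, and the labels give neither an introduced allele nor a drug. The groups were MS-5 cells cultured alone, REC-1 cells cultured alone (Sep), and a coculture sampled after 24 h as its adherent fraction, which holds MS-5 cells with the REC-1 cells bound to them (Adh), and as its suspended REC-1 cells (Susp). Each group had 4 replicates, and mouse counts were used for MS-5 alone and Adh only. As Adh RNA came from both species at once, reads were assigned to mouse or human by sequence, and in such bulk RNA fewer cells of a type and less RNA per cell cannot be told apart. All values describe these established lines and no primary tissue.

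Mouse counts per library ranged from 10097555 to 17397651 in MS-5 alone and from 29495404 to 34615602 in Adh. Of 10 stromal markers, 9 had counts, and their summed level ranged from 9105 to 9816 CPM (counts scaled to library size, with TMM factors) in MS-5 alone and from 9056 to 10290 CPM in Adh. Thy1 was at 0 in all 8 libraries. Mouse B cell markers summed to at most 0.398 CPM in MS-5 alone and 0.431 CPM in Adh, with Cd79b, Ptprc, Cd22 and Pax5 at 0 throughout. The ranges of the summed cycling cell markers, 1995 to 2163 CPM and 2035 to 2389 CPM, overlapped.

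Smooth muscle cells and myofibroblasts build contractile bundles from alpha and gamma smooth muscle actin, with myosin light chains, calponin, transgelin and tropomyosins attached to them. Serum response factor (SRF) switches many of these genes on with its cofactors: myocardin in smooth muscle, and the MRTF proteins, encoded by Mkl1 and Mkl2, in other cells when monomeric actin is used up. The YAP and TAZ coactivators respond to tension and spreading through TEAD factors, and Ctgf and Cyr61 are their standard target genes.

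Actin genes are close in sequence, so the first question was whether reads of one could be counted for another. The first 60 coding bases are shown for Acta2, for its smooth muscle relative Actg2 and for the cytoplasmic actins Actb and Actg1, because they hold nearly all of the actin reads or lie closest in function. Each is written 5′ to 3′ on the coding strand, with capitals marking bases that differ from Acta2 in an alignment of the coding sequences. Gaps of that alignment are not drawn, so the lines do not match Acta2 column by column.
Acta2: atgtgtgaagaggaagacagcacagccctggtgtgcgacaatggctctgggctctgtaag
Actg2: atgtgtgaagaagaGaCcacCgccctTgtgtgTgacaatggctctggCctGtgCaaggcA
Actb: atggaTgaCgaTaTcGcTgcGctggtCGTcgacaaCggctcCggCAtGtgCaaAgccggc
Actg1: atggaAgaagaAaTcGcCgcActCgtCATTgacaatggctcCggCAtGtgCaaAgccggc

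In GRCm38 these stretches lie on the minus strand at chr19:34252494-34252553 for Acta2, chr6:83527382-83527441 for Actg2, chr5:142905627-142905686 for Actb and chr11:120348032-120348091 for Actg1, and are exonic coding sequence. Over the whole coding region, identity to Acta2 was 84.4% for Actg2, 85.4% for Acta1, 82.5% for Actc1, 83.2% for Actb and 81.9% for Actg1. Within the bases shown, 9 differed from Acta2 in Actg2 and 17 in both Actb and Actg1, with Acta2 bases opposite a gap not counted. By position, exons of other genes cover 67.9% of the exonic bases of Tagln, 25.5% of Vcl and 23.2% of Ctgf. Reads there may be ambiguous. Sequences were compared for a chosen coding transcript of each gene, read on its coding strand only. In that comparison, no stretch of 100 bases of the 10 genes recurred in transcripts of another mouse gene or of human genes. Among the other actins, Acta1 and Actc1 shared none, Actb shared 20 of its 1821 windows of that length and Actg1 51.1% with other loci, pseudogenes of Actg1 among them, so the Actg1 level is uncertain.

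Acta2, alpha smooth muscle actin, was an abundant transcript in MS-5 cells, yet calponin, transgelin and the smooth muscle light chain were almost silent. Compared per length (CPM per kb of exon), Acta2 stood at 375 ± 37.1 in MS-5 alone (SD, n = 4), above all others in the set. These 3 genes, Cnn1, Tagln and Myl9, were at 0.027 ± 0.0313, 0.172 ± 0.0542 and 0.605 ± 0.143 CPM per kb. Mean Acta2 per kb was 2177 times that of Tagln and 619 times that of Myl9 in MS-5 alone, and 1626 and 628 times in Adh. The low genes were low in every library.

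Cnn1 (chromosome 9, 22099216 to 22109630) had 2, 0, 0 and 2 counts in MS-5 alone and 4, 0, 2 and 1 in Adh, replicates 1 to 4 in order. A count of 0 allows up to 3 counts, which is 0.299 CPM in MS-5 replicate 2, 0.174 CPM in replicate 3 and 0.102 CPM in Adh replicate 2, for counting error only. Tagln (chromosome 9, 45929619 to 45936058) had 7, 3, 6 and 3 counts in MS-5 alone and 12, 7, 10 and 13 in Adh, or 0.235 to 0.488 CPM against 0.238 to 0.413 CPM. The higher counts in Adh went with the deeper libraries, and on the CPM scale the groups overlapped. Exons of other genes cover 67.9% of the Tagln exonic bases (Pcsk7 and Gm48529), and reads there may not have been given to Tagln. Over the 639 bases outside them its level would be 0.535 ± 0.169 CPM per kb in MS-5 alone, which overlaps the range of Myl9.

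Myl9 (chromosome 2, 156775420 to 156781658) was at 0.697, 0.597, 0.579 and 0.939 CPM in MS-5 alone and at 0.413, 0.340, 0.633 and 0.572 CPM in Adh, between 6 and 22 counts per library. These ranges overlapped, and the log2 difference of -0.51 had an SE of 0.38. Neither Myl9 nor Cnn1 overlaps another gene's exons.

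Related proteins of non-muscle cells were present at high levels, as seen for genes picked out after their values were known. The non-muscle regulatory light chain Myl12a was at 282 ± 9.93 CPM per kb in MS-5 alone, Myl12b at 94.2 ± 5.72 and the essential light chain Myl6 at 250 ± 9.08 (SD, n = 4). The calponin Cnn3 was at 90.9 ± 2.22 CPM per kb, its relative Cnn2 above it in every library, and transgelin-2 (Tagln2) at 236 ± 9.35. For light chains, calponins and transgelins the non-muscle gene therefore exceeded its smooth muscle relative in all 4 libraries. Among actins, Actb (2039 ± 148 CPM per kb) exceeded Acta2 in all of them, while Actg1 (399.9 ± 56.9) and Acta2 overlapped.

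**Figure D1:**
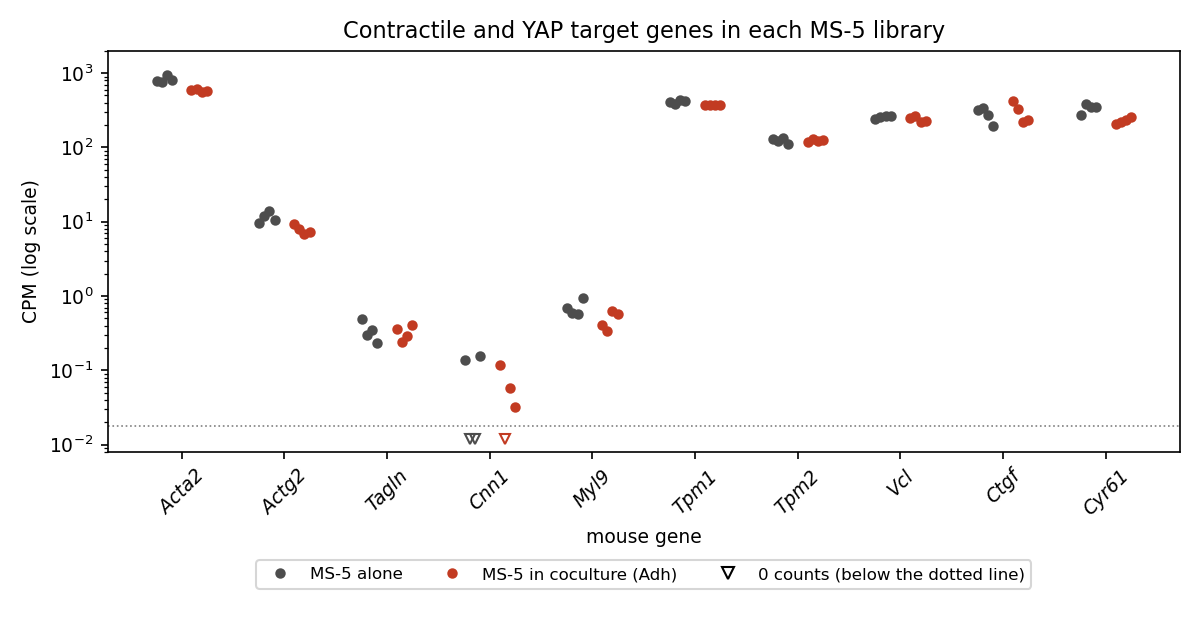
CPM of the 10 mouse genes in each library (log axis), grey for the 4 libraries of MS-5 alone and red for the 4 Adh libraries, ordered by replicate; triangles below the dotted line are libraries with 0 counts. Acta2 lies between 564 and 942 CPM, while Tagln, Cnn1 and Myl9 stay below 1 CPM in every library.

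Per length, the order in MS-5 alone was Acta2 (375), Cyr61 (167), Ctgf (98.7), Tpm1 (63.7), Tpm2 (42.5), Vcl (31.4), Actg2 (7.42), Myl9, Tagln and Cnn1, in CPM per kb, and no 2 neighbours overlapped over the 4 libraries. In Adh the order was the same, but Cyr61 (114 ± 10.8) and Ctgf (105 ± 31.6) overlapped and so did not differ beyond their spread. These lengths are the union of all exons of a gene. With the length of 1 coding transcript, Tpm1, whose exon union of 6485 bases is far longer than the 1824 bases of that transcript, moved to the second place at 227 ± 10.2 CPM per kb, and Cyr61 and Ctgf overlapped in both groups. With only exonic bases that no other gene covers, Tpm2 and Vcl overlapped too. Acta2 came first and Cnn1 last under all 3 lengths.

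As a share of the summed per-length level of 6 actin genes, Acta2 made up 14.2%, 12.2%, 14.5% and 12.2% in MS-5 alone and 10.9%, 10.2%, 10.5% and 9.72% in Adh. All 4 Adh shares lay below all 4 of MS-5 alone, with means of 13.3% ± 1.28 and 10.3% ± 0.503 (SD, n = 4). Actb, the main cytoplasmic actin, held 72.1% ± 1.40 and 75.1% ± 0.556, and Actg1 14.1% ± 1.02 and 14.2% ± 0.988. Actg2 and Acta1 each held under 1%, and Actc1, cardiac actin, had 0 counts in all 8 libraries. With transcript lengths the Acta2 share was 10.6% ± 1.05 and 8.21% ± 0.409.

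In coculture, Acta2, Actg2, Tpm1 and Cyr61 were at lower CPM in all 4 Adh libraries than in any library of MS-5 alone, whereas Tpm2, Vcl, Ctgf, Myl9, Tagln and Cnn1 overlapped between the groups. Over all genes tested, 6.74% had groups that did not overlap, 3.68% with lower values in coculture. The genes were chosen with this contrast known, so nothing is read from that comparison. Fold changes were modest, the largest being 1.47-fold.

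Acta2 (ENSMUSG00000035783, chromosome 19, 34241090 to 34255590) was at 789, 759, 942 and 802 CPM in MS-5 alone and at 588, 602, 564 and 568 CPM in Adh. The lowest library of MS-5 alone thus lay above the highest Adh library. Means were 823 ± 81.5 and 581 ± 17.9 CPM (SD, n = 4), a log2 difference of -0.50 (SE 0.06), lower in Adh. The spread within MS-5 alone was the wider and came with replicate 3, without which the log2 difference was -0.41.

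Actg2, the gamma smooth muscle actin (chromosome 6, 83512905 to 83536265), was at 9.49, 11.9, 14.1 and 10.6 CPM in MS-5 alone and 9.45, 7.90, 6.84 and 7.24 CPM in Adh. The groups were separated only by the difference between 9.49 and 9.45 CPM, both in replicate 1. Means were 11.5 ± 1.99 and 7.86 ± 1.15 CPM (SD, n = 4), a log2 difference of -0.56 (SE 0.15). Replicate 3 of MS-5 alone was the highest library for both Acta2 and Actg2, and without replicate 3 the log2 difference of Actg2 was -0.37.

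Tpm1, a tropomyosin that lies along actin filaments (chromosome 9, 67022590 to 67049406), was at 414, 388, 432 and 420 CPM in MS-5 alone and at 370, 370, 374 and 377 CPM in Adh. The groups did not overlap, but the log2 difference was only -0.15 (SE 0.05). Gene counts do not separate Tpm1 isoforms of smooth muscle from those of other cells. Tpm2, a second tropomyosin, showed 111 to 133 CPM in MS-5 alone and 117 to 131 CPM in Adh, with overlapping groups and a log2 difference of -0.00 (SE 0.06).

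Vcl encodes vinculin, which ties actin filaments to focal adhesions (chromosome 14, 20929398 to 21033676). It was at 245, 260, 262 and 262 CPM in MS-5 alone and at 247, 265, 217 and 228 CPM in Adh. The groups overlapped, with a log2 difference of -0.10 (SE 0.06). Exons of Ap3m1 cover 25.5% of its exonic bases.

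Cyr61 and Ctgf encode secreted matricellular proteins of the CCN family. Cyr61 (chromosome 3, 145646976 to 145649981) was at 277, 380, 345 and 349 CPM in MS-5 alone and at 207, 222, 232 and 259 CPM in Adh. The groups did not overlap, and replicate 1 was the lowest of each. Means were 338 ± 43.3 and 230.0 ± 21.8 CPM (SD, n = 4), a log2 difference of -0.55 (SE 0.09), or 1.47-fold lower in Adh.

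Ctgf (chromosome 10, 24595442 to 24598683) was at 323, 335, 276 and 196 CPM in MS-5 alone and at 416, 331, 223 and 235 CPM in Adh. The groups overlapped, and in both of them replicates 1 and 2 were above replicates 3 and 4. The log2 difference was 0.09 (SE 0.18), ranging from -0.03 without replicate 1 to 0.21 without replicate 3. Whether the difference between Ctgf and Cyr61 exceeds the spread was not tested. Exons of Gm15270 cover 23.2% of the Ctgf exonic bases.

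**Figure D2:**
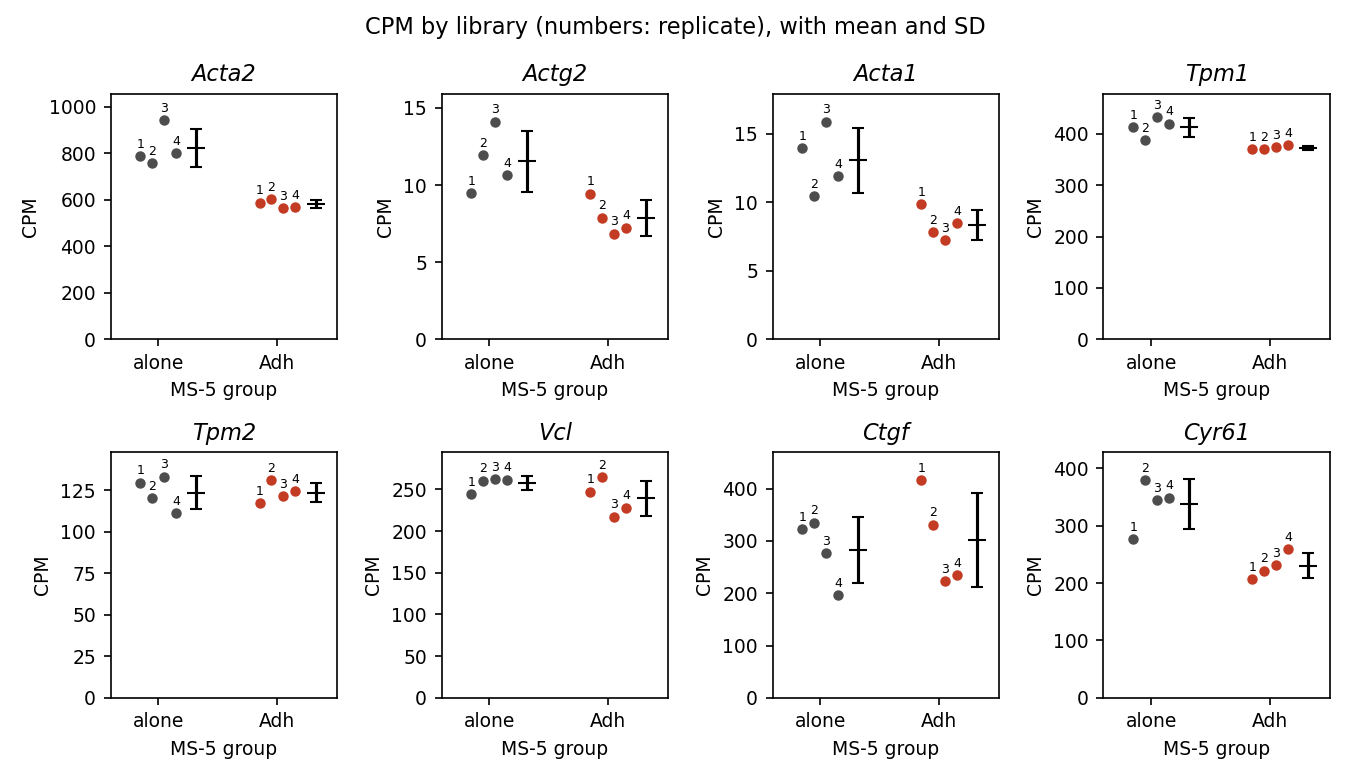
CPM in each library for 7 of the genes and for Acta1 (linear axes from 0, points numbered by replicate), with mean and SD beside each group of 4. Acta2, Actg2, Acta1, Tpm1 and Cyr61 have no overlap between MS-5 alone and Adh, while Tpm2, Vcl and Ctgf overlap.

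A gene was called when its edgeR quasi-likelihood test gave a Benjamini-Hochberg adjusted p no larger than 0.05 and its fold change reached 1.5. Of all 12201 genes tested, 25 (0.205%) were called, 5 higher (0.041%) and 20 lower (0.164%) in coculture. With DESeq2 the calls were 29, of which 11 were higher and 18 lower. For the contractile genes themselves no calls are given, as they were chosen on this contrast. The 8 that passed the filter had a median log2 difference of -0.33, with 7 of 8 negative, beside -0.00 and 50.4% negative over all genes tested. For the same reason nothing is read from that comparison. With Myl9 left out for its low counts the median was -0.15. Tpm2 was among the 7, and its sign turned with upper-quartile normalization or plain library totals.

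The genes whose CPM followed that of Acta2 most closely over the 8 libraries were Iffo2, Bcat1, Trim16, Pop1 and Podnl1. The measure of likeness was the root mean square difference of mean-centred log2 CPM among 8816 genes with a mean of at least 10 CPM, and was 0.072 for Iffo2 and 0.097 for Podnl1. Within the set, Actg2 was nearest (0.153, with 56 genes nearer), followed by Cyr61 (0.179, with 161 nearer) and Tpm1 (0.187, with 233 nearer). Actg2, at a mean of 9.70 CPM, lay under that minimum and is not among the 8816 genes. Centring was over all 8 libraries, so the measure includes the difference between the groups. The set was chosen with that difference known, so nothing is read from the order of its genes. Ctgf, at 0.448, had 8694 genes nearer.

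The related genes that were not part of the set were tested with all other genes, and p-values measure the spread between these libraries. Over all 12201 genes tested, 11.3% had an unadjusted p under 0.05 and 50.4% had a negative log2 difference, the shares against which the counts of each list stand. The lists were chosen with earlier results of these data known, so their shares are a description and nothing is read from the comparison. Among paralogs of the set (actins, tropomyosins, calponins, transgelins and CCN proteins), 10 of 13 genes were tested, with a median log2 difference of -0.07. Of the 10, 3 had an unadjusted p under 0.05 (30%) and 8 were negative (80%). Only 1 was called, lower in coculture. It was Acta1, skeletal muscle actin (chromosome 8, 123891769 to 123894751), at 13.9, 10.4, 15.9 and 11.9 CPM in MS-5 alone and 9.83, 7.80, 7.25 and 8.45 CPM in Adh. The groups did not overlap, with a log2 difference of -0.66 (SE 0.14, edgeR adjusted p = 0.0481). This call lay at the threshold: adjusted p rose to 0.0507 with upper-quartile normalization and 0.0541 with thinned counts, and ranged from 0.0508 to 0.38 when 1 replicate was left out, the highest being without replicate 3. The abundant paralogs were not called, with log2 differences of -0.08 (SE 0.05) for Actb, -0.13 (SE 0.09) for Actg1 and -0.03 (SE 0.04) for Tpm4.

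Smooth muscle differentiation genes ranged from abundant to near 0, and none of those tested was called. Of 15, 8 were tested and 0 were called by edgeR or DESeq2, with 4 at an unadjusted p under 0.05 (50%, beside 11.3% over all genes) and a median log2 difference of -0.05. Pdlim3 and Actn2, both muscle Z-disc proteins, had 0 counts in all 8 libraries, and Myh11, the smooth muscle myosin heavy chain, had at most 2 counts in any of them (chosen after values were seen, like Lmod1 and Fhl1 here). Lmod1, an actin nucleator of muscle, had at most 18. Cald1, the actin and tropomyosin binding caldesmon, was at 1799 ± 26.7 CPM in MS-5 alone and 1659 ± 75.8 in Adh, a log2 difference of -0.12 (SE 0.04, edgeR adjusted p = 0.305). Flnc, filamin C, had -0.20 (SE 0.09) and Csrp1, a cysteine-rich LIM protein, -0.01 (SE 0.07). Fhl1, a LIM protein of muscle, had -0.51 (SE 0.12, edgeR adjusted p = 0.0681). Of the 8 tested, 5 were negative (62.5%, beside 50.4% over all genes) and 3 positive. The positive ones, Des, Smtn and Mylk, were not called. Des was higher in Adh without overlap, at 0.21 (SE 0.07, edgeR adjusted p = 0.217). Smtn had 0.13 (SE 0.08) and Mylk 0.12 (SE 0.11).

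Focal adhesion and stress fibre genes, which anchor actin bundles at the cell membrane, gave 0 calls of 25 with both tools and 5 at an unadjusted p under 0.05 (20%, beside 11.3% over all genes), with a median of -0.05 and 20 negative (80%, beside 50.4%). The actin crosslinker Flna had a log2 difference of -0.23 (SE 0.06, edgeR adjusted p = 0.116), alpha-actinin 4 (Actn4) -0.15 (SE 0.05) and integrin beta 1 (Itgb1) -0.01 (SE 0.05).

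Of 24 regulators of the SRF, YAP and TGF-beta pathways, 23 were tested and 0 were called by edgeR or DESeq2, with 6 at an unadjusted p under 0.05 (26.1%, beside 11.3% over all genes) and a median log2 difference of -0.03. Of the 23, 13 were negative (56.5%, beside 50.4%). Myocd, the smooth muscle cofactor of SRF, had 0 counts in all 8 libraries. Srf was at 110.4 ± 15.2 CPM in MS-5 alone and 99.5 ± 13.4 in Adh (log2 difference -0.15, SE 0.10). The MRTF gene Mkl1 was at 107, 121, 118 and 113 CPM in MS-5 alone and 90.2, 106, 87.5 and 97.7 CPM in Adh. Those groups did not overlap, but the log2 difference of -0.27 (SE 0.07) was not called (edgeR adjusted p = 0.103), and Mkl2 had -0.04 (SE 0.10). The coactivators were not called, with log2 differences of 0.03 (SE 0.05) for Yap1 and 0.03 (SE 0.06) for Wwtr1, which encodes TAZ, and -0.15 (SE 0.08) for Tead1, which encodes a DNA-binding partner of both.

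Vgll3, a cofactor of TEAD proteins, was at 158, 184, 188 and 207 CPM in MS-5 alone and at 135, 136, 145 and 152 CPM in Adh. Its groups did not overlap, and the log2 difference was -0.38 (SE 0.07, edgeR adjusted p = 0.0218), under the fold-change minimum and therefore no call. Lats2, a kinase that inhibits YAP (chosen after values were seen), had -0.32 (SE 0.07, edgeR adjusted p = 0.0596). Tgfb1 and Tgfbr1 of the TGF-beta pathway, also chosen after values were seen, were higher in Adh and not called. Their log2 differences were 0.20 (SE 0.06, edgeR adjusted p = 0.185) for Tgfb1 and 0.20 (SE 0.09, edgeR adjusted p = 0.382) for Tgfbr1.

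Other YAP and TAZ target genes gave 0 calls of 17 tested (20 listed) with both tools, and 8 had an unadjusted p under 0.05 (47.1%, beside 11.3% over all genes). Their median log2 difference was -0.10, with 13 of 17 negative (76.5%, beside 50.4%). The receptor kinase Axl had -0.06 (SE 0.04), the membrane repair protein Myof -0.15 (SE 0.05) and the Arf regulator Asap1 -0.12 (SE 0.05). Ankrd1, a nuclear ankyrin-repeat protein (chosen after values were seen), was at 2.99 to 3.99 CPM in MS-5 alone and 1.40 to 2.63 CPM in Adh, without overlap, at a log2 difference of -0.76 (SE 0.22, edgeR adjusted p = 0.17). Ccdc80, chosen likewise, went the other way, at 0.24 (SE 0.10, edgeR adjusted p = 0.344). Matrix genes of myofibroblasts gave 0 calls of 11 tested (13 listed) with both tools and 2 at an unadjusted p under 0.05 (18.2%, beside 11.3% over all genes), with a median of 0.02. Of the 11, 4 were negative (36.4%, beside 50.4%). Thrombospondin 1 (Thbs1) had 0.06 (SE 0.09), the collagen crosslinking enzyme Lox 0.24 (SE 0.08) and collagen Col1a1 0.01 (SE 0.09).

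**Figure D3:**
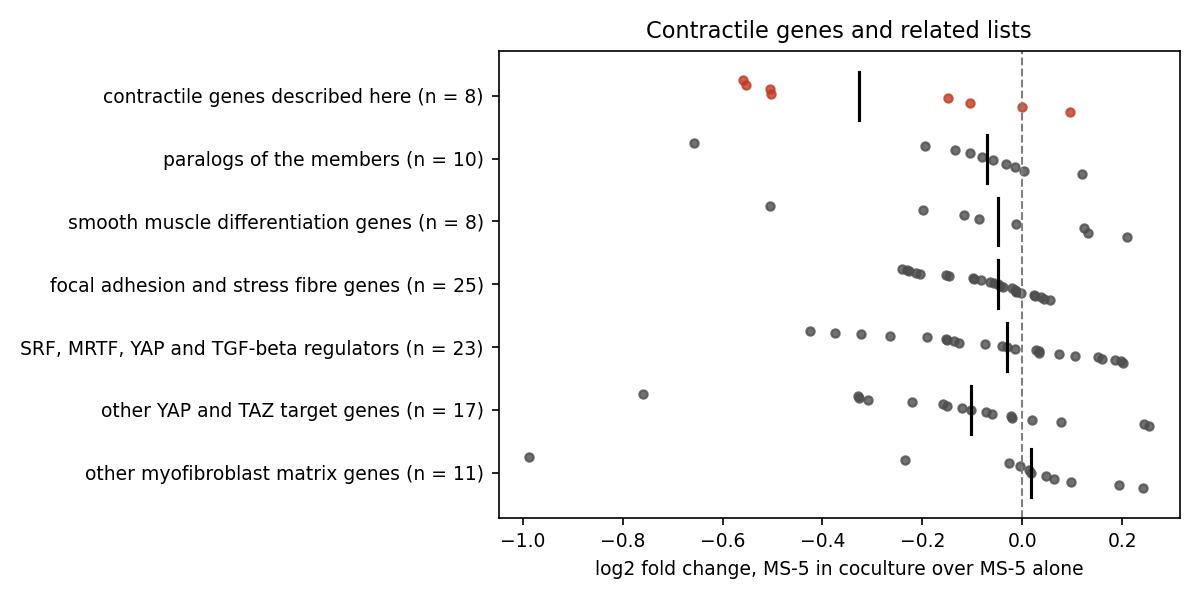
Log2 fold change of MS-5 in coculture over MS-5 alone for each tested gene (points) of the contractile set (red) and 6 related lists (grey), with list medians as black bars and the median of all genes tested as a dashed line. The set's median is -0.33 and the list medians lie between -0.10 and 0.02. The set was chosen with this contrast known, so nothing is read from its distance to the lists.

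REC-1 cells were bound to the MS-5 cells in Adh, so the human orthologs were set beside the mouse genes of the same libraries. Summed over the 4 Adh libraries, Acta2 had 75100 mouse counts and ACTA2 37 human counts, or 0.0493% of the mouse sum. The human sums were 82 for TPM1 and 20 for TPM2 against 48289 and 15972 mouse counts, and CYR61, CNN1 and MYL9 had 0 human counts. Vinculin was abundant in both species, with 9239 human counts, which is 29.9% of the 30864 mouse counts. The same Adh libraries held fewer human counts in total, 7758979 to 13241751, against 29495404 to 34615602 mouse counts. Scaled to the depth of each species, mean VCL in Adh was 237 CPM, within the 217 to 265 CPM of Vcl. The 29.9% therefore does not show a lower vinculin level in REC-1 cells. Transgelin was the reverse of Acta2 in raw counts, with 271 human and 42 mouse counts. These counts are not scaled for depth or for exon length, 6550 bases in TAGLN and 1988 in Tagln. Other genes cover 67.9% of the Tagln exonic bases, and such overlap was not examined for TAGLN.

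**Figure D4:**
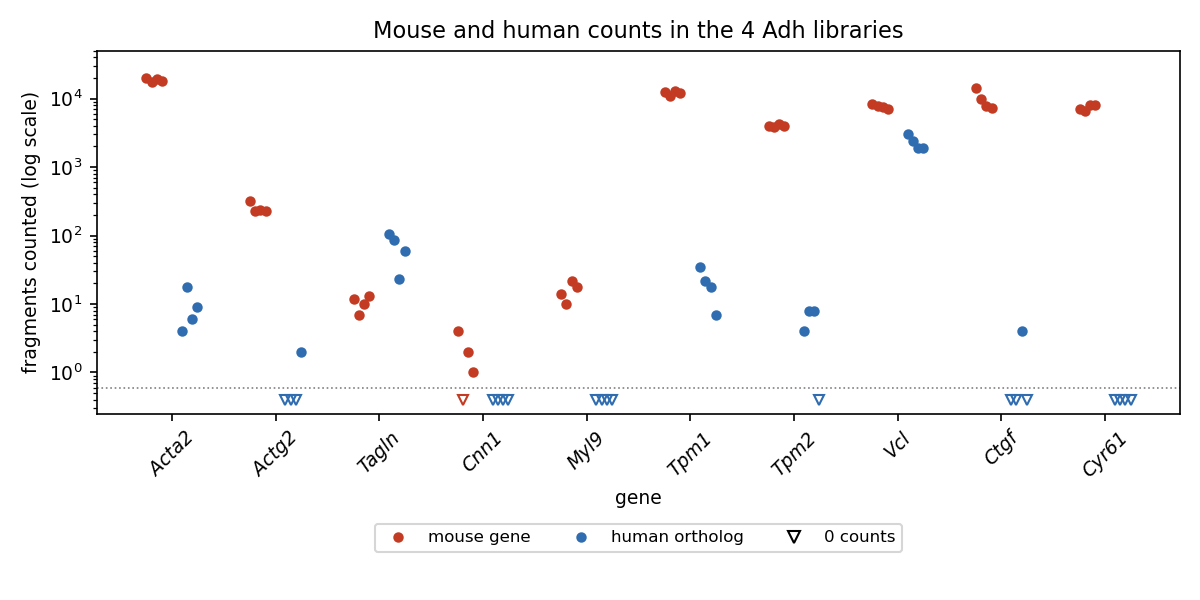
Fragments counted for each mouse gene (red) and its human ortholog (blue) in the 4 Adh libraries (log axis, ordered by replicate), with triangles below the dotted line for 0 counts. Only Vcl reaches over 1000 counts in both species, and Tagln has more human than mouse counts in every library. Counts are not scaled for depth or exon length.

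In REC-1 cells, 4 of the 10 orthologs passed the filter (ACTA2, TAGLN, TPM1 and VCL) and 0 were called between Adh and Susp or between Adh and Sep by edgeR or DESeq2. At an unadjusted p under 0.05 only TAGLN stood out, in both comparisons. Over all 12861 human genes tested, 0.778% and 2.4% were called. VCL was at 265 ± 18.6 CPM in Sep, 242 ± 48.0 in Susp and 237 ± 8.04 in Adh (SD, n = 4), with a log2 difference between Adh and Susp of -0.03 (SE 0.12, edgeR adjusted p = 0.897). TAGLN was at 10.0, 15.0, 8.58 and 8.13 CPM in Sep, 11.7, 12.8, 9.43 and 8.66 in Susp, and 7.82, 8.18, 2.96 and 7.57 in Adh. Adh did not overlap with Susp, but overlapped with Sep, and the log2 differences were -0.66 (SE 0.26, edgeR adjusted p = 0.21) from Susp and -0.63 (SE 0.26, edgeR adjusted p = 0.188) from Sep. ACTA2 was at 0.950 ± 0.385 CPM in Sep, 0.960 ± 0.444 in Susp and 0.990 ± 0.606 in Adh, so counts were assigned to human ACTA2 also in cultures without mouse cells.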

How the data were processed

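RNA-seq counts of MS-5, Adh, Sep and Susp samples (4 each) were used. Per the labels and the study's methods, the authors separated human from mouse reads with Xenome, aligned them to GRCh38 and GRCm38 with STAR (2.5.1b) and, for unique alignments, summarised fragments on genes by featureCounts (Subread 1.5.2). The deposited values are whole, not normalized counts, and 20 columns of other samples were not used. edgeR 4.0.16 in R 4.3.3 (filterByExpr, TMM, quasi-likelihood test, Benjamini-Hochberg adjustment over all genes) gave the comparisons, mouse and human separately. The study gives 4 independent experiments, but the labels do not say that replicates were separate cultures, so the spread may be partly technical. Members and lists were chosen with earlier results of these data known.

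Named genes were the 10 members, their human orthologs, the 5 genes most like Acta2, the markers and, per list, called genes, the 3 most abundant genes and the main SRF and YAP regulators. Positions and sequences came from GENCODE M21 (GRCm38), not the authors' release. On simulated counts with 100 genes changed by 1 and 100 by 2 on the log2 scale, the mouse test recovered all 100 and all 100 of 12202 genes, with 5 false calls. Smaller changes were not simulated, and recovery was not split by expression level. It therefore does not show whether the smaller differences given above, or changes in genes with few counts, would be called. DESeq2 1.42.0, other scalings and filters, thinned counts, a replicate block and each replicate left out were alternatives. Transcript lengths and lengths outside other genes were added after seeing the data. Of the lists and markers, 1 list and 1 gene are not reported here.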

Additional observations from a re-analysis of the deposited data

Results flagged for a closer look

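In 3 of 94 groups of 4 libraries tested, 1 library stood apart by Dixon's test, where chance would give 4.7. Vcl was at 244.5 CPM in replicate 1 of MS-5 alone, below 260.3 to 262.0 CPM in the other 3 libraries. Asap1 was at 371.3 CPM in Adh replicate 4, below 406.9 to 411.6 CPM in the others. Human TAGLN was at 2.96 CPM in Adh replicate 3, below 7.57 to 8.18 CPM in the others, and this low library enters the TAGLN differences given above.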

How the results depend on the processing

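The 25 calls in MS-5 became 45 without the low-count filter, 45 with the replicate block, 94 without the fold-change minimum, and 7 to 27 when 1 replicate was left out. Deviations of same-numbered MS-5 and Adh libraries correlated at 0.39, 0.10, -0.01 and 0.25, the highest in replicates 1 and 4. These values do not settle whether the numbers pair the libraries. The labels do not say so, and the main test therefore had no replicate block. The block changed no call in a list. Without the fold-change minimum, 1 regulator (Vgll3) was called. The Acta1 call was lost (0 paralogs) with upper-quartile normalization, with thinned counts and without any 1 replicate. The median log2 difference of the contractile genes was -0.14 with thinned counts, -0.30 to -0.25 with 1 replicate left out and -0.15 with at least 10 counts in every library, under which Myl9 was not tested. Without the low-count filter, 1 human ortholog was called between Adh and Susp (TAGLN, -0.68, adjusted p = 0.0363). For all of these the cause was not tested. Genes with differences near 0 and no call changed sign: Csrp1 (0.0023 without the filter, 0.0043 thinned, -0.064 to 0.075 with 1 replicate left out), Itgb1 (0.0036 without the filter, -0.034 to 0.0082 with 1 left out), and, with 1 replicate left out, Yap1 (-0.0067 to 0.055), Mkl2 (-0.11 to 0.065), Wwtr1 (-0.022 to 0.078), Col1a1 (-0.040 to 0.10) and VCL between Adh and Susp (-0.15 to 0.022). ACTA2 between Adh and Susp was -0.079 with the block and -0.73 to 0.50 with 1 left out, and between Adh and Sep -0.0024 with library totals, -0.0045 with the block and -0.14 to 0.29 with 1 left out. TPM1 between Adh and Susp was 0.019 thinned and -0.27 to 0.12 with 1 left out. Depth limits Cnn1, Tagln, Myl9 and most human orthologs, whose few counts leave small changes undetectable.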
